A study of Mus musculus with 21 samples.

Results

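Kupffer cells are the resident macrophages of the liver. The 10 genes described here mark their identity or their macrophage character: Clec4f, Timd4, Vsig4, Marco, Cd5l, Adgre1, C1qa, C1qb, C1qc and Cd163. They were matched by gene name, and each matched 1 gene in each of 3 tables of RNA sequencing from mice. They are 10 of 34280 genes in the thioacetamide table and 10 of 54532 genes in each of the other 2 tables. The study asked how STING and the NLRP3 inflammasome take part in liver fibrosis and hepatocyte death.

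The 21 libraries form 7 groups of 3. In 1 table, whole liver came from wild-type mice given intraperitoneal oil, from wild-type mice given carbon tetrachloride (CCl4, a hepatotoxin that causes fibrosis) and from mice labelled Sting knockout given CCl4. The labels give 6 weeks of injections, and the series' design text gives 8 weeks for CCl4. Another table holds liver after 8 weeks of intraperitoneal thioacetamide (TAA, another hepatotoxin), from wild-type animals and from animals with hepatocyte-specific Nlrp3 deletion. TAA was given to both of those groups, and no saline-treated liver enters the comparisons. The last table holds primary wild-type hepatocytes given lipopolysaccharide (LPS, 1 µg/mL, 6 h) and nigericin (10 µM, 30 min), which together activate the NLRP3 inflammasome. Of these 6 libraries, 3 had the NLRP3 inhibitor MCC950 (10 µM) for 2 h beforehand. The labels name no strain, sex, age or Cre driver, and nothing in them says whether the 3 libraries of a group came from separate animals or cultures. The p-values therefore measure the spread between libraries, which may be technical.

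Kupffer cells line the sinusoids, where they take up bacteria, dying cells, aged red cells and lipoproteins from portal blood. Most arise before birth and renew themselves locally under colony stimulating factor 1, Notch and transforming growth factor signals from their neighbours. In injured liver, monocytes from blood enter and become macrophages that carry pan-macrophage genes at once and gain some Kupffer genes late or not at all. Clec4f, a lectin that binds glycans ending in galactose, is restricted to Kupffer cells in the mouse. Timd4, a phosphatidylserine receptor for apoptotic cells, is known as a mark of long-resident macrophages. The other members are shared to differing degrees with macrophages of other organs or with recruited cells.

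The total of reads assigned to genes was 14353483 to 16684832 in the CCl4 table and 14883710 to 17157586 in the hepatocyte table, as recovered from the deposited values, and 32096879 to 68913793 in the TAA table. Reads of mitochondrially encoded genes made up 27.8% to 34.7% of the wild-type TAA libraries and 5.63% to 12.5% of the Nlrp3-deleted ones. In the CCl4 table that share was 5.4% to 9.16% in oil liver and 3.42% to 5.36% in wild-type CCl4 liver. It was 2.21% to 5.06% in CCl4 liver labelled Sting knockout. The gene that encodes STING appears under its older symbol Tmem173. It was at 6.10, 5.15 and 4.74 FPKM in wild-type CCl4 liver and at 3.42, 1.98 and 5.28 FPKM in the libraries labelled Sting knockout, so its RNA was not lost there. The titles of those libraries also carry codes beginning SWT. They are called the libraries labelled Sting knockout below, and every direction drawn from them rests on that label. Nlrp3 had 36, 24 and 28 reads in wild-type TAA liver and 23, 105 and 83 in the Nlrp3-deleted libraries. Whole liver holds Nlrp3 from other cells too, so this does not check a deletion in hepatocytes. In bulk liver, fewer cells of a type and less RNA per cell cannot be told apart, and this holds for every liver value below.

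The sequence upstream of the transcription start was read for 8 of the 10 members from RefSeq promoter windows (build GRCm38.p6). Adgre1 and C1qa are named only. Each window reaches from 250 bases before to 50 bases after the RefSeq start. Both strands were searched for GAGGAA, a core of sites bound by PU.1, the factor encoded by Spi1 that macrophages depend on. It was present in 5 of the 8 windows (Marco, Cd5l, C1qb, C1qc and Vsig4) and in 28.3% of 32851 windows of all genes. Its first base lay at -146 from the start in Marco, -66 in Cd5l, -30 in C1qb, -193 in C1qc, and -155 and -53 in Vsig4. The windows of Clec4f, Timd4 and Cd163 held no match. The following 4 stretches show members that moved strongly under CCl4 beside the pair most restricted to resident cells. They are trimmed to bases before both the RefSeq start and the deposited gene model, run 5′ to 3′ on the gene's strand, and carry GAGGAA or its reverse complement in capitals. Marco lies at chr1:120505025-120505274 on the minus strand, C1qb at chr4:136886201-136886450 on the minus strand, Clec4f at chr6:83656188-83656366 on the minus strand and Timd4 at chr11:46810549-46810798 on the plus strand.
Marco: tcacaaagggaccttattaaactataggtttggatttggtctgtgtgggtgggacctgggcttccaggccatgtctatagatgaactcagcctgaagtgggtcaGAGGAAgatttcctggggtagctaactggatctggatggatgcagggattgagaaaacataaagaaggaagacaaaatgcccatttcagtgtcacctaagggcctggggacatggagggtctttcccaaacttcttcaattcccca
C1qb: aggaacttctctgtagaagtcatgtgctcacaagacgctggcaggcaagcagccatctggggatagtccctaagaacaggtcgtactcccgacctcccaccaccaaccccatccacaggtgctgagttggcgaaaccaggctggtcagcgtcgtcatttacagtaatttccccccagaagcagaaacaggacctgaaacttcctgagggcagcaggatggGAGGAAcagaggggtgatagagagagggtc
Clec4f: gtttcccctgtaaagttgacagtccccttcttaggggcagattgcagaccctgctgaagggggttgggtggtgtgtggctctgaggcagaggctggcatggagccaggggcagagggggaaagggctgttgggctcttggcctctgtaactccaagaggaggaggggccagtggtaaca
Timd4: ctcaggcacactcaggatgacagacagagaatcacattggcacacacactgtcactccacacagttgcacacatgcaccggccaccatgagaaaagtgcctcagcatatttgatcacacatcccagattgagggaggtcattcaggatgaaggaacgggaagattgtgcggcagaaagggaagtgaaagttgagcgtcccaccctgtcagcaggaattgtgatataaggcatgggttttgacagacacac

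Marco and C1qb thus show 1 capitalised stretch each, and Clec4f and Timd4 show none. TGCTGA, a half-site of MAF factors, was in 5 of the 8 windows (19.5% of all windows). AGGTCA, a nuclear receptor half-site, was in 3 of 8 (16.3% of all windows). TGANTCA (AP-1) and CACGTG (E-box) were in 0 of 8, against 7.81% and 7.15% of all windows. GAGGAA and the other motifs are counted wherever their letters occur, and a match is a description of the letters, not a site.

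Under CCl4, Marco, C1qb, Adgre1, C1qc and Cd5l rose in wild-type liver against oil, from 2.89-fold for C1qc to 15.1-fold for Marco. C1qa and Vsig4 had higher means whose tests missed the threshold. Clec4f, Timd4 and Cd163 did not pass either, with intervals that reach both sides of no change. The count was 5 of 10 members higher and 0 lower by limma on log2(FPKM + 1) at an adjusted p under 0.05, where 9.19% of the 11511 genes tested were higher and 6.15% lower. The median log2 difference was 1.59 over the members and -0.08 over all genes tested. All 10 members passed the filter of a mean of at least 1 FPKM, and each was above 1 FPKM in every oil library, so none was tested only because it was high under CCl4.

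**Figure D1:**
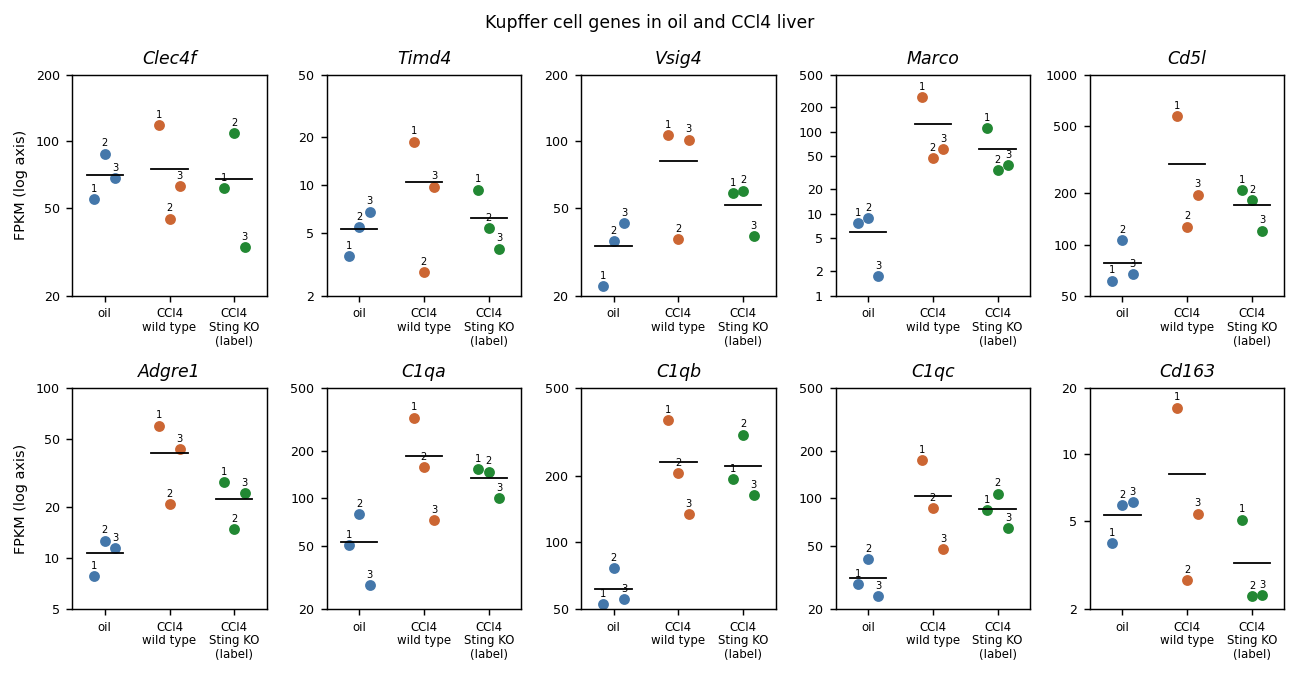
Level of each of the 10 genes in the CCl4 table, in FPKM on a log axis, for oil, wild-type CCl4 and CCl4 liver labelled Sting knockout (3 libraries each). Points are libraries with their replicate number and bars are arithmetic means; wild-type CCl4 replicate 1 is the highest of its group in all 10 panels, and the oil and wild-type CCl4 points are apart in Marco, Cd5l, Adgre1, C1qb and C1qc.

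Marco encodes a class A scavenger receptor that binds bacteria and particles. It was at 7.65, 8.82 and 1.75 FPKM in oil liver and at 267, 47.4 and 61.1 FPKM in wild-type CCl4 liver. Every CCl4 library lay above every oil library, by a wide gap. Its log2 difference was 3.92 ± 0.71 (SE, n = 3 per group, adjusted p = 0.00457 by limma), which is 15.1-fold with a 95% interval of 5.11 to 44.7. This call was kept in all 18 alternative settings, with adjusted p between 0.00194 and 0.0276.

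Vsig4, the complement receptor of the immunoglobulin superfamily that clears C3b-coated particles, was at 22.2, 35.4 and 42.7 FPKM in oil liver. Its wild-type CCl4 values were 107, 36.0 and 102 FPKM, so that 1 CCl4 library sat among the oil libraries. The log2 difference was 1.16 ± 0.43 (SE, n = 3 per group, adjusted p = 0.103 by limma). Vsig4 passed in 3 of the 18 alternatives, with adjusted p of 0.0447 after quantile normalization, 0.0164 without wild-type CCl4 replicate 2 and 0.0421 by edgeR on recovered reads, in a range of 0.0164 to 0.313 over all of them.

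Clec4f was at 54.7, 87.8 and 68.1 FPKM in oil liver and at 118, 44.6 and 62.6 FPKM in wild-type CCl4 liver. The CCl4 libraries spanned the whole oil range. Its log2 difference of 0.01 had a 95% interval of -1.02 to 1.03 (adjusted p = 0.996 by limma, n = 3 per group), so changes of up to about this size in either direction are not separable from the spread. The sign turned negative without wild-type CCl4 replicate 1 (-0.38), without oil replicate 1 (-0.16) and without oil replicate 3 (-0.00).

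Timd4 was low in oil liver, at 3.57, 5.45 and 6.81 FPKM, and scattered under CCl4, at 18.8, 2.82 and 9.78 FPKM. The lowest and the highest of these 6 values both came from CCl4 liver. Its log2 difference was 0.61 with a 95% interval of -0.53 to 1.75 (adjusted p = 0.501 by limma, n = 3 per group).

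Cd163, the receptor for haemoglobin bound to haptoglobin, showed the same spread, at 3.96, 5.92 and 6.09 FPKM in oil liver and 16.3, 2.71 and 5.40 FPKM under CCl4. Of its 3 CCl4 values, 2 lay below the oil median. The log2 difference was 0.25 with a 95% interval of -0.81 to 1.31 (adjusted p = 0.799 by limma, n = 3 per group), and it was -0.36 without wild-type CCl4 replicate 1.

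Among the secreted proteins, Cd5l (also called AIM) is a scavenger receptor-related protein that circulates with IgM. Its level was 61.3, 106 and 66.9 FPKM in oil liver and 570, 128 and 197 FPKM in wild-type CCl4 liver. All 3 CCl4 values exceeded the oil values, and replicate 1 stood far above the others. The log2 difference was 1.67 ± 0.50 (SE, n = 3 per group, adjusted p = 0.0488 by limma). That adjusted p was 0.113 without wild-type CCl4 replicate 1, and the call held in 9 of the 18 alternatives, over which the adjusted p ran from 0.0151 to 0.154.

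C1qa, C1qb and C1qc encode the chains of C1q, the recognition part of the first complement component, which in liver comes mainly from macrophages. The 3 genes lie side by side on chromosome 4 in mm10, C1qb at 136880129 to 136886187, C1qc at 136889804 to 136893065 and C1qa at 136895917 to 136898803, all on the minus strand and overlapping no other gene of the deposited annotation. C1qb was at 52.7, 76.4 and 55.6 FPKM in oil liver and at 356, 205 and 134 FPKM under CCl4. C1qc was at 28.6, 41.4 and 24.1 FPKM in oil liver and at 175, 86.9 and 48.0 FPKM under CCl4. For both genes the groups were apart. C1qa was at 50.4, 79.3 and 28.4 FPKM in oil liver and at 325, 157 and 72.6 FPKM under CCl4, so that its lowest CCl4 library lay below the highest oil library.

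The log2 differences were 1.80 ± 0.40 for C1qb (adjusted p = 0.0122), 1.53 ± 0.44 for C1qc (adjusted p = 0.0390) and 1.66 ± 0.53 for C1qa (adjusted p = 0.0594), each SE with n = 3 per group and each p from limma. C1qa passed in 5 of the 18 alternatives, with adjusted p from 0.0159 to 0.208 over all of them. The ratio of C1qa to C1qb differed by -0.14 on the log2 scale between CCl4 and oil, and that of C1qa to C1qc by 0.12. Neither differed beyond the spread (exact two-sided permutation p = 0.7 and 0.8, n = 3 per group).

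Adgre1 encodes F4/80, the surface receptor by which mouse tissue macrophages are commonly stained. It was at 7.81, 12.6 and 11.4 FPKM in oil liver and at 60.0, 20.6 and 43.6 FPKM in wild-type CCl4 liver. The groups did not overlap. The log2 difference was 1.77 ± 0.39 (SE, n = 3 per group, adjusted p = 0.0125 by limma), and the adjusted p was 0.0590 without oil replicate 1, the 1 alternative of 18 in which Adgre1 was not called.

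Across the members, oil and wild-type CCl4 libraries did not overlap for Marco, Cd5l, Adgre1, C1qb and C1qc, all 5 higher under CCl4, where 16.6% of all genes tested were higher without overlap and 21.4% lower. Wild-type CCl4 replicate 1 was the highest library of its group for all 10 members. Without it, Marco, Adgre1 and C1qb were called, and without oil replicate 1 only Marco was. Without oil replicate 2 or the Sting knockout-labelled replicate 1 the called members were the same 3, and without oil replicate 3 they were Adgre1 and Marco. Same-numbered libraries were taken to pair because their deviations correlated, though the titles name no pairs. With the replicate number as a block on that basis, C1qa was called too (adjusted p = 0.0177 by limma). Because the pairing was drawn from the same data, that call is a description only.

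**Figure D2:**
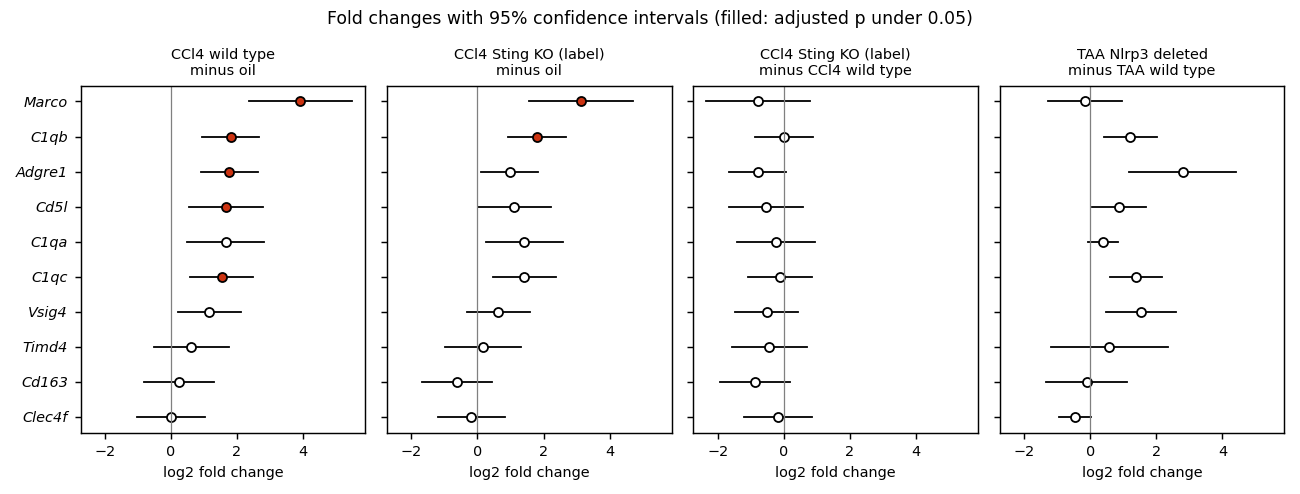
Log2 fold change of each gene with its 95% confidence interval in 4 liver comparisons (n = 3 per group), from limma on log2(FPKM + 1) for CCl4 and from edgeR on counts for TAA; red points have an adjusted p under 0.05. Marco and C1qb are red in both comparisons with oil, which share the oil libraries, and no gene is red in the comparisons between genotypes.

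Genes that act on or with the Kupffer genes were read from lists of known roles. Of 13 regulators of Kupffer identity tested, 5 were higher and 0 lower. Of these 13, 10 had an oil mean of at least 1 FPKM, and 4 of the 10 were higher, where 5.05% of the 10490 genes tested with such an oil mean were. The other 3 passed the filter only through the CCl4 groups. Spi1, which encodes PU.1, went from 3.90 to 16.9 ± 8.27 FPKM (SD, n = 3, adjusted p = 0.00391 by limma). Id1, an inhibitor of DNA binding induced by bone morphogenetic proteins, went from 5.82 to 17.8 ± 4.49 FPKM, and Irf8, a monocyte and macrophage factor, from 1.23 to 6.61 ± 4.33 FPKM. With 1 library left out in turn, 3 to 6 regulators were called, and 3 without wild-type CCl4 replicate 1 or any 1 oil library. Of 13 niche signals and receptors tested, 4 were higher and 0 lower, among them Acvrl1, Tgfbr2 and Csf1r, the colony stimulating factor 1 receptor (18.5 to 53.3 ± 34.6 FPKM, adjusted p = 0.0454 by limma). This count rests on single libraries. It was 0 without oil replicate 1 or 2, 1 without oil replicate 3, wild-type CCl4 replicate 1 or the knockout-labelled replicate 1, and 2 without the knockout-labelled replicate 3. Other Kupffer-associated genes had 6 of 19 higher and 0 lower (4 to 10 with 1 library left out, the 10 without wild-type CCl4 replicate 2), with Vcam1 from 1.33 to 11.3 ± 5.30 FPKM, Cd207 from 1.99 to 6.82 ± 1.38 FPKM and Slc11a1, a phagosomal metal transporter, from 3.60 to 13.4 ± 5.67 FPKM.

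Of 10 further complement genes tested, 1 was higher (Cd93, 1.37 to 7.42 ± 1.79 FPKM) and 0 lower, a share near the 9.19% of all genes tested that were higher. Of 10 partners of Cd163 in haemoglobin and iron handling, 1 was higher (Hmox1, which degrades haem, 13.5 to 70.9 ± 42.9 FPKM) and 0 lower, again near 9.19%. Hmox1 is also counted among the other Kupffer-associated genes.

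Marker lists of macrophages in general and of other cells were read in the same comparison. Pan-macrophage genes are expressed by Kupffer cells as well as by other macrophages, and include Csf1r, also counted among the niche signals above. Of 16 tested, 15 were higher and 0 lower, where 9.19% of all genes tested were higher. Of the 15 with an oil mean of at least 1 FPKM 14 were higher, where 5.05% of all genes tested with such an oil mean were. Of 16 genes of recruited and scar-associated macrophages, 15 passed the filter and 7 of these did so only through the CCl4 groups. Gpnmb, a membrane glycoprotein of the lysosome and cell surface, is 1 of these 7, at 0.052 FPKM in oil liver and 28.2 ± 2.04 FPKM (SD, n = 3) in wild-type CCl4 liver. Of the 8 with an oil mean of at least 1 FPKM, 6 were higher and 0 lower. The pan-macrophage sum was 224 to 302 FPKM in oil liver and 1130 to 1615 FPKM in wild-type CCl4 liver. The recruited-macrophage sum was 240 to 257 and 399 to 643 FPKM, and the members' own sum 293 to 459 and 731 to 2013 FPKM. In the hepatocyte cultures given LPS and nigericin, described below, the recruited-macrophage list summed to 261 to 290 FPKM. The pan-macrophage list summed to 99.8 to 112 FPKM there. Those cultures held 3 to 6 reads of Csf1r, so neither sum is restricted to macrophages. Of 7 neutrophil markers 4 passed the filter, 1 of them only through the CCl4 groups, and the other 3 were higher. Peritoneal macrophage markers had 1 of 4 higher (Saa3 alone), sinusoidal endothelial markers 1 of 10, a share near the 9.19% of all genes tested, stellate cell markers 2 of 8, B and plasma cell markers 1 of 4 and cholangiocyte markers 1 of 4, with 0 lower in each. Each of these 5 counts fell to 0 without at least 1 library. The cholangiocyte gene called was Spp1, which is on the recruited-macrophage list too, so 1 gene enters both counts. T and NK cell markers (2 tested, both with an oil mean under 1 FPKM), dendritic cell markers (1 tested) and hepatocyte markers (8 tested) had 0 called. The part of cells other than Kupffer cells in the members' values was not tested.

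Next, 4 members were divided by Csf1r within each library, which removes any scaling of the library. Csf1r itself was at 18.3 to 18.8 FPKM in oil liver and 27.1 to 92.5 FPKM in wild-type CCl4 liver. A gene with no change at all would therefore have a log2 difference of -1.33 in such a ratio. Clec4f to Csf1r was 2.99, 4.67 and 3.66 in oil liver and 1.28, 1.65 and 1.56 in wild-type CCl4 liver. Every CCl4 library lay below every oil library, while Clec4f alone had the log2 difference of 0.01 (interval -1.02 to 1.03) given above. This ratio was 2.50-fold lower under CCl4, at the smallest p that 3 against 3 libraries allow, which cannot pass the threshold (log2 difference -1.32, exact two-sided permutation p = 0.1, adjusted p = 0.48 over 24 ratio tests). Cd163 to Csf1r was 0.217, 0.315 and 0.327 in oil liver and 0.176, 0.10 and 0.134 under CCl4, again without overlap (log2 difference -1.08, exact two-sided permutation p = 0.1). With Cd68, a pan-macrophage lysosomal protein, in place of Csf1r, the differences were -2.50 for Clec4f and -2.26 for Cd163, also at an exact permutation p of 0.1. A gene with no change would differ by -2.51 in a ratio to Cd68. Cd68 is not restricted to macrophages in these data, since the hepatocyte cultures described below held 26.7 to 35.0 FPKM of it beside 3 to 10 reads of Csf1r.

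Timd4 to Csf1r was 0.195, 0.290 and 0.366 in oil liver and 0.204, 0.104 and 0.243 in wild-type CCl4 liver. These groups overlapped (log2 difference -0.67, exact two-sided permutation p = 0.3, n = 3 per group). C1qa to Csf1r was 2.76, 4.22 and 1.53 in oil liver and 3.51, 5.81 and 1.81 under CCl4, with a log2 difference of 0.35 (exact two-sided permutation p = 0.7, n = 3 per group) that became -0.83 with Cd68. C1qa thus gave ratios to Csf1r within the oil range or above it, whereas Clec4f and Cd163 gave ratios below it. Csf1r overlaps Hmgxb3 and Mir6983 in the deposited annotation, and whether reads were counted by strand is not given in the sources used.

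**Figure D3:**
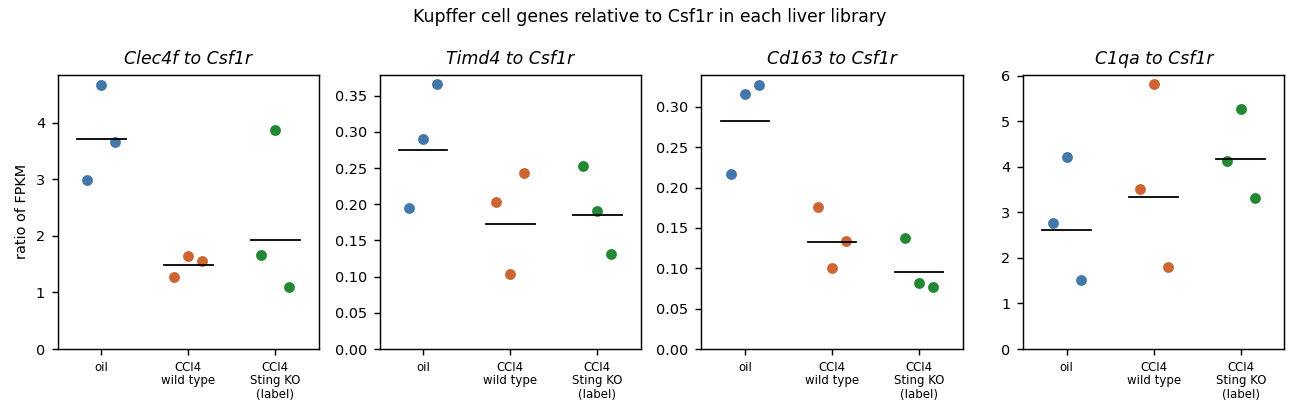
FPKM of Clec4f, Timd4, Cd163 and C1qa divided by FPKM of Csf1r within each library of the CCl4 table, on linear axes from 0. Points are libraries (3 per group) and bars are geometric means; the wild-type CCl4 points lie below all oil points for Clec4f (at most 1.65 against at least 2.99) and Cd163 (at most 0.176 against at least 0.217).

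Levels per gene length ordered the members in oil liver as Cd5l (78.1 ± 24.3 FPKM), Clec4f (70.2 ± 16.6), C1qb (61.5 ± 12.9), C1qa (52.7 ± 25.6), Vsig4 (33.4 ± 10.4), C1qc (31.4 ± 8.99), Adgre1 (10.6 ± 2.51), Marco (6.07 ± 3.79), Cd163 (5.32 ± 1.18) and Timd4 (5.28 ± 1.63), each a mean with its SD over 3 libraries. From Cd5l down to C1qc, and from Marco down to Timd4, neighbours differed by less than the larger SD of the pair, while the steps from C1qc to Adgre1 and from Adgre1 to Marco exceeded it. In wild-type CCl4 liver the order by mean was Cd5l (298 ± 238), C1qb (232 ± 113), C1qa (185 ± 128), Marco (125 ± 123), C1qc (103 ± 65.3), Vsig4 (81.5 ± 39.5), Clec4f (75.1 ± 38.2), Adgre1 (41.4 ± 19.8), Timd4 (10.5 ± 8.03) and Cd163 (8.12 ± 7.18). Every neighbour in that order differed by less than the larger SD of the pair, except Adgre1 from Timd4.

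The genes whose pattern over the 9 libraries of the CCl4 table was most like that of a member were found by Pearson correlation of log2(FPKM + 1) among 11511 genes, as a description that pools 3 groups and shares the high wild-type CCl4 replicate 1. For Clec4f they were Ubxn8 (r = 0.909), Mkrn1 (0.894), Htatip2 (0.890), Tmem53 (0.887) and Mbl2 (0.880), none of them on the macrophage lists. For Timd4 they were P2ry13 (r = 0.953), Fpr1 (0.948), Lilra5 (0.936), Nqo1 (0.928) and Cxcl13 (0.908). For C1qa they were Dok1 (r = 0.983), its neighbour C1qc (0.978), Lyl1 (0.964), Gpsm3 (0.957) and Cep85 (0.956). For Cd163 they included Slc40a1, the iron exporter ferroportin (r = 0.953), Lilra5 (0.942), Man2b1 (0.929) and Ubl3 (0.927). Among the members themselves the C1q chains were most alike (r = 0.918 to 0.978 over 9 libraries). Marco followed Cd5l (r = 0.906) and C1qa (r = 0.901), whereas Clec4f was far from Marco (r = 0.148) and from Adgre1 (r = 0.150).

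Between the libraries labelled Sting knockout and wild-type liver, both under CCl4, no member was called, and all 10 overlapped, where 2.35% of genes tested were higher without overlap and 2.78% lower. By limma 0 of 11511 genes (0%) were called, 366 had an unadjusted p under 0.05 and none of these was a member, and edgeR on recovered reads called 0. The knockout-labelled values were 111, 34.4 and 39.0 FPKM for Marco, against 267, 47.4 and 61.1 in wild-type CCl4 liver. Clec4f was at 61.5, 109 and 33.2 FPKM, Timd4 at 9.36, 5.34 and 3.97, Vsig4 at 58.0, 59.7 and 37.3, and Cd5l at 208, 182 and 121. Each of these ranges lay partly or wholly inside the wild-type one. Same-numbered libraries of these 2 groups were taken to pair by the correlation of their deviations, which the titles do not state. In all 3 pairs the knockout-labelled library was the lower for 3 members, Marco, Adgre1 and Cd163, and it was the lower in 2 of 3 pairs for 5 others. The fit with the replicate number as a block called none of them (adjusted p = 0.537 for Marco, 0.520 for Adgre1 and 0.522 for Cd163 by limma).

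The smallest unadjusted p-values were those of Adgre1 and Cd163. Adgre1 was at 27.8, 14.8 and 24.1 FPKM in the labelled knockout (log2 difference -0.79, 95% interval -1.65 to 0.07, adjusted p = 0.761 by limma). Cd163 was at 5.07, 2.28 and 2.31 FPKM (log2 difference -0.88, 95% interval -1.93 to 0.18, adjusted p = 0.761 by limma). C1qa was at 153, 148 and 100 FPKM, C1qb at 194, 307 and 164 and C1qc at 84.6, 107 and 64.9, with log2 differences of -0.24, -0.00 and -0.11. The interval for C1qb was -0.88 to 0.87, so a change of that size is not separable from the spread. The members' median was -0.48, and that of all genes tested was 0.02. Without wild-type CCl4 replicate 1 the sign turned positive for 6 members: Clec4f (0.19), Timd4 (0.10), Cd5l (0.07), C1qa (0.29), C1qb (0.36) and C1qc (0.37).

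Set against oil, the libraries labelled Sting knockout had 2 of 10 members higher, C1qb and Marco, and 0 lower, where 8% of genes tested were higher and 5.91% lower. This comparison shares its oil libraries with the one in wild-type liver. Marco had a log2 difference of 3.14 ± 0.71 (adjusted p = 0.0154) and C1qb of 1.80 ± 0.40 (adjusted p = 0.0135), with SE, n = 3 per group and limma for both. Beside them stand the wild-type differences of 3.92 and 1.80. The groups did not overlap for Marco, Cd5l, Adgre1, C1qa, C1qb and C1qc, all 6 higher, where 17.8% of genes tested were higher without overlap.

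Of the rest, C1qc came closest, at 1.42 ± 0.44 (adjusted p = 0.0554 by limma), followed by C1qa at 1.42 ± 0.53 (adjusted p = 0.105), Adgre1 at 0.98 ± 0.39 (adjusted p = 0.127) and Cd5l at 1.12 ± 0.50 (adjusted p = 0.175). Vsig4 at 0.63, Timd4 at 0.17, Clec4f at -0.18 and Cd163 at -0.63 had 95% intervals that include 0. C1qc passed in 7 of 18 alternatives (adjusted p 0.0219 to 0.185) and C1qa in 2 (0.0327 to 0.327). Marco was lost without the knockout-labelled replicate 1 (adjusted p = 0.0539) and without oil replicate 3 (0.0710), and C1qb without oil replicate 1 (0.0602) or replicate 3 (0.0612). Without oil replicate 3 no member was called. Without wild-type CCl4 replicate 3, which shares the estimate of spread, 4 were.

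Among the ratios of the labelled knockout, Cd163 to Csf1r was 0.137, 0.081 and 0.076, below all 3 oil libraries (log2 difference -1.57, exact two-sided permutation p = 0.1, adjusted p = 0.48 over 24 ratio tests). Clec4f to Csf1r was 1.66, 3.88 and 1.10, with replicate 2 inside the oil range (log2 difference -0.95, exact two-sided permutation p = 0.3). Csf1r itself was higher in the labelled knockout than in oil liver. A gene with no change would therefore differ by -0.77 in both of these ratios. Pan-macrophage genes with an oil mean of at least 1 FPKM had 11 of 15 higher and such recruited-macrophage genes 5 of 8, with 0 lower in both, where 4.57% of all genes tested with that oil mean were higher. Kupffer regulators had 2 of 13 higher (Id1 and Spi1), other Kupffer-associated genes 4 of 19, niche signals 1 of 13 (Tgfb1), further complement genes 1 of 10 and haemoglobin and iron genes 2 of 10, with 0 lower in each. The counts of these lists take in every gene tested, whatever its oil mean. Of all genes tested 8% were higher, near the shares of the niche signals and of the complement genes. With 1 library left out, these counts ran from 2 to 3, 1 to 6, 0 to 1, 1 to 1 and 0 to 3 in that order.

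In TAA liver, the Nlrp3-deleted libraries had higher means than wild-type libraries for several members, but none passed the test across all genes. Levels are CPM, that is counts relative to a library size scaled by edgeR's TMM factors. By edgeR's quasi-likelihood test 0 of 10 members were called, 5 had an unadjusted p under 0.05, and 1.73% of 18619 genes tested were called, 1.37% higher and 0.36% lower. DESeq2 called 4 members higher, Adgre1, C1qb, C1qc and Vsig4, where it called 3658 of 33412 genes (1986 higher). With no filter on low counts, edgeR called the same 4, where it called 1593 of 33475 genes (1137 higher). All 10 members passed edgeR's filter on low counts, and their median log2 difference was 0.72, against -0.04 over all genes tested.

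Adgre1 was at 3.13, 1.59 and 2.89 CPM in wild-type and at 3.77, 17.2 and 31.9 CPM in Nlrp3-deleted TAA liver. Replicate 1 of the deletion sat just above wild type, and the other two were several times higher. The log2 difference was 2.79 ± 0.70 (SE, n = 3 per group, adjusted p = 0.0604 by edgeR), with an adjusted p from 0.000219 to 0.198 over 12 alternatives. C1qc was at 21.1, 31.4 and 22.3 CPM in wild type and 35.5, 75.0 and 84.9 with the deletion (log2 difference 1.38 ± 0.34, adjusted p = 0.0588 by edgeR). C1qb was at 27.0, 32.7 and 32.9 CPM and 35.9, 85.0 and 93.8 (1.21 ± 0.35, adjusted p = 0.0765). Vsig4 was at 6.20, 11.4 and 9.50 CPM and 11.7, 23.6 and 42.8 (1.53 ± 0.46, adjusted p = 0.0840). In these 4 genes the groups did not overlap, where 17.5% of all genes tested were higher without overlap, and deletion replicate 1 was the lowest of its group in each.

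Cd5l was at 66.5, 63.0 and 70.8 CPM in wild type and 65.5, 110 and 190 with the deletion, replicate 1 again lying within wild type (log2 difference 0.87, adjusted p = 0.158 by edgeR). C1qa was at 42.2, 55.8 and 51.4 CPM and 55.7, 70.3 and 68.2 (log2 difference 0.38, 95% interval -0.08 to 0.83, adjusted p = 0.242 by edgeR). On the deposited FPKM scale both genes were apart. Cd5l was at 18.4 to 26.8 FPKM in wild type and 28.1 to 88.0 with the deletion, and C1qa at 31.9 to 38.1 and 46.8 to 66.6. The ratio of C1qa to C1qb was 1.63, 1.78 and 1.64 in wild type and 1.62, 0.865 and 0.760 with the deletion. That of C1qa to C1qc was 3.71, 3.30 and 4.28 and then 2.91, 1.74 and 1.49. In both ratios the groups did not overlap, narrowly so for C1qa to C1qb in deletion replicate 1 (log2 differences -0.72 and -0.93, exact two-sided permutation p = 0.1 each, adjusted p = 0.48 over 24 ratio tests). Deletion replicates 2 and 3 held the lowest ratios of the 6 libraries in both.

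**Figure D4:**
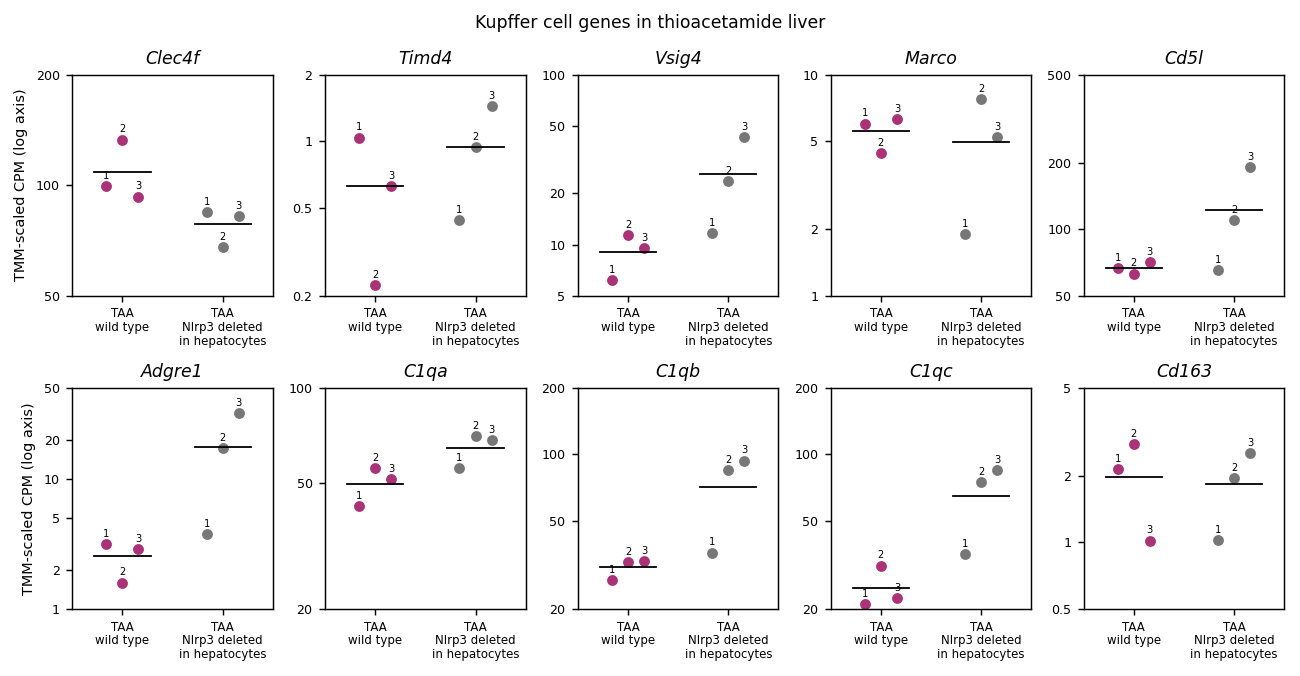
Level of each of the 10 genes in TAA liver, in TMM-scaled CPM on a log axis, for wild-type mice and mice with Nlrp3 deleted in hepatocytes (3 libraries each). Points are libraries with their replicate number and bars are arithmetic means; deletion replicate 1 lies near wild type in Adgre1, Cd5l and C1qb, while Clec4f is lower in all 3 deletion libraries than in any wild-type one.

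Clec4f took the other direction. It was at 99.4, 133 and 93.1 CPM in wild type and 84.6, 67.9 and 82.4 with the deletion, all 3 below wild type, where 18.7% of genes tested were lower without overlap. Its log2 difference was -0.47 with a 95% interval of -0.96 to 0.02 (adjusted p = 0.189 by edgeR, n = 3 per group). On the deposited FPKM scale the Clec4f groups overlapped. Clec4f to Csf1r differed by -1.04 on the log2 scale (exact two-sided permutation p = 0.2, n = 3 per group), where a gene with no change would differ by -0.96.

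Marco, the member with the largest difference under CCl4, was at 6.00, 4.40 and 6.28 CPM in wild-type TAA liver and 1.90, 7.75 and 5.21 with the deletion (log2 difference -0.17, 95% interval -1.28 to 0.94). Timd4 was low, at 1.04, 0.22 and 0.63 CPM and then 0.44, 0.94 and 1.44, and Cd163 was at 2.14, 2.77 and 1.02 and then 1.02, 1.95 and 2.54. All 3 had overlapping groups and adjusted p above 0.6 by edgeR.

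Several measures moved with the genotype beside these members. The mitochondrial share of reads was 27.8% to 34.7% in wild type and 5.63% to 12.5% with the deletion. Summed hepatocyte markers were at 9284 to 10192 FPKM in wild type and 25396 to 32555 FPKM with the deletion, with Serpina1a and Ass1 the 2 of 8 called higher. The pan-macrophage sum was 88.8 to 125 FPKM and then 119 to 446 FPKM. The recruited-macrophage sum was 139 to 268 and then 242 to 383 FPKM, with 0 of 17 and 0 of 16 genes called. Neither sum is restricted to macrophages, as the hepatocyte values given with the CCl4 sums show. Kupffer regulators (13 tested), other Kupffer-associated genes (19), niche signals (14), further complement genes (12) and haemoglobin and iron genes (10) had 0 called. With the mitochondrial genes left out of the counts, 0 members were called, as with them, and 557 genes. Without deletion replicate 1 the 5 members Adgre1, C1qb, C1qc, Cd5l and Vsig4 were called higher. In that setting 7555 of 19889 genes tested were called, 3570 of them higher. The part of library composition in these values was not tested.

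In cultured hepatocytes the members were nearly absent. All 10 together had 4, 8 and 15 reads in the libraries given LPS and nigericin, and 32, 26 and 29 reads in those given MCC950 as well, out of 14883710 to 17157586 reads. No member reached a mean of 1 FPKM, so none entered the test across genes, in which 0 of 9835 genes (0%) were called by limma (1168 at an unadjusted p under 0.05, 0 by edgeR on recovered reads). Vsig4 had 0 reads in all 6 libraries, and Cd163 had 1 read in a single MCC950 library. Alb, the hepatocyte product albumin, was at 26207 to 32796 FPKM.

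The summed reads of the MCC950 libraries all lay above those of the others. Clec4f had 0, 1 and 0 reads and, with MCC950, 7, 3 and 3. Marco had 1, 1 and 2 and then 5, 7 and 9. For these 2 genes the groups did not overlap (exact two-sided permutation p = 0.1 each on FPKM, the smallest value 3 against 3 can give, which cannot pass the threshold). Among the genes that passed the filter, which these 2 did not, 8.88% were higher without overlap, so that share is no reference for them. The counts of the other members overlapped: Timd4 had 0 to 3 reads, Cd5l 0 to 3, Adgre1 1 to 7, C1qa 0 to 7, C1qb 0 to 6 and C1qc 0 to 2. At these counts no level can be told from a few stray reads.

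**Figure D5:**
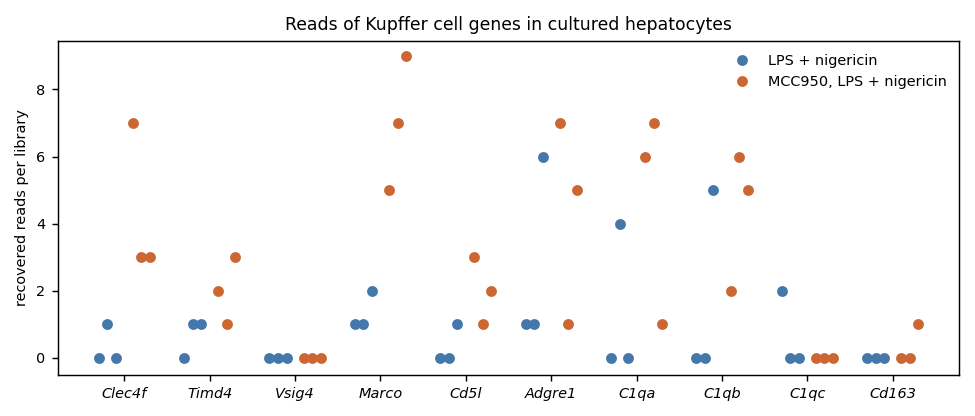
Reads recovered for each of the 10 genes in each primary hepatocyte library, on a linear axis, for LPS with nigericin (blue) and for MCC950 before LPS with nigericin (orange), 3 libraries each. No point is above 9 reads, and the orange points lie above the blue ones for Clec4f and Marco.

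Not every macrophage marker was at that floor in the cultures. Csf1r had 4, 3 and 6 reads without and 10, 10 and 8 with MCC950, and Ptprc, the leukocyte common antigen CD45, had 0 to 5. Cd68 had 581 to 760 reads, or 26.7 to 35.0 FPKM, and Mpeg1 143 to 170 reads. Of the 17 pan-macrophage genes, 14 had a mean under 1 FPKM in either group. Of the 13 regulators of Kupffer identity, 5 passed the filter in the cultures: Nr1h3, which encodes LXR alpha, Id1, Id3, Rbpj and Smad4 (named after their values were seen).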

How the data were processed

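Total RNA of 15 liver and 6 hepatocyte libraries was sequenced, per the labels' protocols. The submitters' processing notes list HISAT2 2.2.1, featureCounts 1.5.0-p3 and the build mm10. The authors deposited raw counts and FPKM for the TAA table and FPKM only for the other 2, normalized separately, so groups were compared within a table. FPKM times gene length, divided by a step fitted in each library, gave the recovered reads. These were whole (within 0.05) for 100% of the values checked, which left out 0 and the highest values. FPKM times gene length in kb summed to 1096240 to 1344058 in oil liver and 857315 to 916803 in wild-type CCl4 liver. The FPKM scale thus differed between these groups.

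CCl4 and MCC950 comparisons used limma 3.58.1 (intensity trend) on log2(FPKM + 1), for genes averaging 1 FPKM or more, with the 3 groups of the CCl4 table in 1 fit. On this scale a fold change understates the change of low genes. TAA used edgeR 4.0.16 (TMM, quasi-likelihood test, low-count filter). That test gives no SE. Each SE for TAA is therefore the size of the log2 difference, without edgeR's shrinkage, divided by the square root of the test's F statistic. The TAA intervals were built from this SE around the log2 difference that edgeR reports. DESeq2 1.42.0 and edgeR on recovered reads were alternatives, the latter chosen after seeing the data. P-values were adjusted by Benjamini-Hochberg over all genes tested, with 0.05 as the threshold for a call. Ratios were tested by exact permutation over libraries, which with 3 against 3 cannot go below 0.1. On simulated data with 200 changed genes, 2-fold and 4-fold changes were recovered in 20% and 90% of these for CCl4 against oil (11511 genes). The shares were 19% and 92% for labelled Sting knockout against wild type and 20% and 94% for labelled knockout against oil. They were 99% and 100% for MCC950 (9835 genes) and 2% and 67% for TAA (18619 genes). The shares hold for 200 changed genes, whereas 1766 genes were called for CCl4 against oil. They are not split by expression level, so they do not give the recovery at the level of a given member. No member was among the 9835 genes, so the MCC950 shares do not apply to the members.

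Named genes are all 10 members, up to 3 called genes with the smallest p of each other list, and the 5 genes most like Clec4f, Timd4, C1qa and Cd163, of which 1 is not reported here. The members and lists were chosen with earlier results of these data known. Same-numbered libraries deviated together for wild-type CCl4 and oil (correlations 0.23, 0.32 and 0.52) and for labelled Sting knockout and wild type (0.19, 0.18 and 0.12). These numbers were therefore taken to pair. The titles name no pairs, and the MCC950 correlations were about as high as the latter (0.18, 0.22 and 0.09).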

Additional observations from a re-analysis of the deposited data

How the results depend on the processing

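Marco kept its call in wild-type CCl4 liver under every alternative run. For CCl4 against oil, quantile normalization and edgeR on recovered reads each called Vsig4 and C1qa beside the 5 of the main fit. Members called under CCl4 against oil went from 5 to 3 with no filter, and the labelled Sting knockout against oil from 2 to 1. For TAA they went from 0 to 4 by DESeq2 (3658 of 33412 genes called) and with no filter (1593 of 33475 genes called). Leaving out 1 library in turn gave 1 to 5 members for CCl4 against oil, 0 to 4 for the labelled knockout against oil, 0 to 5 for TAA and 0 to 0 for the other comparisons. The cause of these shifts was not tested.

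Genes called under CCl4 against oil numbered 1766 (1058 higher), 877 at a mean of at least 5 FPKM, where fewer genes were tested, 2790 (1969 higher) by edgeR on recovered reads, and 936 to 2472 with 1 library left out. For the labelled knockout against oil they numbered 1601 (921 higher), 829, 2436 (1702 higher) and 781 to 1857 in the same order. For labelled knockout against wild type they numbered 0, 2 with no filter and 0 to 1 with 1 library left out, and for MCC950 likewise 0, 2 with no filter and 0 to 1. For TAA they numbered 322, 1 with RLE factors, 3658 by DESeq2, 1041 by limma on log2 CPM, 1593 with no filter, 557 without mitochondrial genes (added after seeing the data) and 0 to 7555 with 1 library left out; 7555 came without deletion replicate 1, and 0 without wild-type replicate 2 or 3. The number of TAA calls thus depends on single libraries and on the tool.

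With the replicate block, 2227 genes and 6 members (C1qa added) were called for CCl4 against oil. For labelled knockout against wild type, 0 and 0 were called. In these comparisons the numbers were taken to pair, and in the others they were not. That choice is not consistent, since oil and labelled knockout were each taken to pair with wild type but not with each other. The pairing was drawn from these same data, so the block fits are descriptions only. Same-number correlations were 0.02, 0.18 and 0.09 for labelled knockout against oil, where the block called 2065 genes and 4 members (C1qa and C1qc added). They were 0.18, 0.22 and 0.09 for MCC950 (0 genes) and 0.09, -0.00 and 0.00 for TAA (2 genes, 0 members). Correlation alone does not separate MCC950 from labelled knockout against wild type (0.19, 0.18 and 0.12). Libraries correlated best with their own number in every MCC950 pair.

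With 1 library left out, log2 differences against oil ranged from -0.38 to 0.32 for Clec4f and -0.36 to 0.75 for Cd163 in wild-type CCl4 liver, and from -0.60 to 0.24 for Clec4f and -0.13 to 0.40 for Timd4 in the labelled knockout. Labelled knockout against wild type ranged from -0.60 to 0.24 for Clec4f, -1.09 to 0.10 for Timd4, -1.01 to 0.066 for Cd5l, -0.78 to 0.29 for C1qa, -0.34 to 0.36 for C1qb and -0.55 to 0.37 for C1qc. Under TAA, Marco ranged from -0.63 to 0.23 and Cd163 from -0.42 to 0.25. None of these was called.

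Ratios turned sign with Cd68 in place of Csf1r for C1qa (-0.83 for CCl4 against oil, -0.20 for labelled knockout against wild type, -1.02 for labelled knockout against oil) and, for labelled knockout against wild type, Clec4f (-0.15) and Timd4 (-0.42). Timd4 under TAA was -0.22 with 0.1 added to FPKM. With 1 library left out, C1qa to Csf1r ranged from -0.052 to 0.79 for CCl4 against oil, -0.12 to 0.73 for labelled knockout against wild type and -0.47 to 0.021 for TAA. C1qa to C1qb ranged from -0.46 to 0.068 and C1qa to C1qc from -0.10 to 0.26 for CCl4 against oil, and C1qa to C1qc from -0.23 to 0.12 for labelled knockout against oil. Clec4f to Csf1r and Timd4 to Csf1r ranged from -0.14 to 0.77 and -0.27 to 0.34 for labelled knockout against wild type, and Timd4 to Csf1r from -0.57 to 0.89 for TAA. Clec4f to Csf1r stayed negative for CCl4 against oil (-1.48 to -1.16).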
